A study of Mus musculus with 6 samples.

Results

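AP-1 and immediate early genes were examined in 2 mouse lines, the M0505 line of ovarian surface epithelium and the STOSE line, a transformed line that arose from M0505 cells during long culture. The group held 10 genes, taken from the deposited table by symbol, of 20405 genes with a symbol. They were *Fos*, *Fosb*, *Fosl1* and *Fosl2* of the Fos family, *Jun*, *Junb* and *Jund* of the Jun family, *Atf3*, *Egr1* and *Ier3*. Each was read by 1 probe set, so no choice between probe sets was needed. Total RNA of 3 M0505 and 3 STOSE samples was run on Affymetrix Mouse Gene 1.0 ST arrays. On these, probes spread along each transcript are summarized on a log2 scale. The titles name the samples as biological replicates, with no word on whether they were separate cultures. The p-values therefore set the difference between the lines against a spread estimated from these samples, and reach no further than them. Both lines were of FVB/N origin with no treatment named, and both grew in the same α-MEM based medium, which held fetal calf serum and EGF. Each is a single cultured line, the M0505 cells were of early passage, and the karyotyping described in the study found abnormal chromosome numbers in both.

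AP-1 is a dimer of basic leucine zipper proteins. Jun proteins pair with each other or with Fos proteins, whereas Fos proteins need a Jun partner to bind DNA, so the makeup of the dimer follows from which family members a cell makes. Several of these genes are called immediate early because growth factors, serum or stress raise their transcription within minutes without new protein synthesis, through MAP kinases and factors such as SRF and the ETS protein ELK1. In cycling epithelial cells they link growth factor receptors to genes of the cell cycle, adhesion and matrix breakdown.

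*Fosl1*, *Atf3* and *Egr1* were higher in STOSE cells and *Fos* and *Fosl2* were lower, by between 2.22-fold and 13.8-fold, with no overlap between the arrays of the lines. *Junb*, *Jund* and *Ier3* differed by less than 2-fold, and *Jun* and *Fosb* did not pass the test. To be called, a gene had to differ at least 2-fold and have an adjusted p under 0.05 from limma (Benjamini-Hochberg over the 20405 genes). Under this rule 3 of the 10 genes (30%) were higher and 2 (20%) were lower. Over all genes tested 4.90% were called higher and 7.59% lower, which was 1000 and 1548 genes. Without the dimmer 50% of genes, 775 genes were called higher and 1099 lower, and the 10 genes kept their 3 and 2. The shares called were thus larger among the brighter genes, to which all 10 belonged, than over all genes. The 10 genes were chosen with earlier results of these data known, so the shares are given as description. The lower count of the group was not stable. It was 1, *Fosl2*, without STOSE replicate 1, and 0 with each array centred on the median of its genes with a symbol, an alternative chosen after seeing the data that also turned the balance over all genes to 1466 higher and 1177 lower. The arrays of the lines did not overlap in 8 of the 10, against 64.6% of all genes, and the adjusted p was under 0.05 in 8 of the 10, against 56.5% of all genes, so most genes of the array also met these looser criteria. In bulk RNA, fewer cells that make a transcript and less of it per cell cannot be told apart.

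To show the sequence around the transcription start for members that fell (*Fos*, *Fosl2*), rose (*Atf3*) and had no called change (*Jun*), the RefSeq promoter windows of 300 bases in GRCm38.p6 are given 5′ to 3′ in the direction of the gene, 250 bases before the annotated start and 50 from it on. They lie at chr12:85473640-85473939 (plus strand) for *Fos*, chr5:32136222-32136521 (plus strand) for *Fosl2*, chr1:191183284-191183583 (minus strand) for *Atf3* and chr4:95052173-95052472 (minus strand) for *Jun*. Capitals mark matches to AP-1 and cyclic AMP response element (CRE) letters.
Fos: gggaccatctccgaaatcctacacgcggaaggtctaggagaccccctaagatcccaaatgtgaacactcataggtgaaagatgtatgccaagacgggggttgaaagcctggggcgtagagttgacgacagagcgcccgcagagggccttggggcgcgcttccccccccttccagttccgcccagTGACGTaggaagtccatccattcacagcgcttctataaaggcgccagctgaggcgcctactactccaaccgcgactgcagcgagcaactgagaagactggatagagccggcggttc
Fosl2: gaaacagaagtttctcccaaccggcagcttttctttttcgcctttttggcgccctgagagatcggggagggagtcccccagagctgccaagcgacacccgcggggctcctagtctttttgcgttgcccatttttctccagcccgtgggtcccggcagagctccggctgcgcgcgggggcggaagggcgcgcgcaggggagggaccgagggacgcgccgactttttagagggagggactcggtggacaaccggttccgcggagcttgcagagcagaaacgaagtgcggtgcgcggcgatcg
Atf3: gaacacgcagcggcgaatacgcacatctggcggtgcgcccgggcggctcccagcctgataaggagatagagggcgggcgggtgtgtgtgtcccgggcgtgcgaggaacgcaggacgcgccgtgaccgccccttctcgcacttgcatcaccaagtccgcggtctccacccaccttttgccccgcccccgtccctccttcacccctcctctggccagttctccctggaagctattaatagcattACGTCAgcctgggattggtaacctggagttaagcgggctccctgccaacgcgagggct
Jun: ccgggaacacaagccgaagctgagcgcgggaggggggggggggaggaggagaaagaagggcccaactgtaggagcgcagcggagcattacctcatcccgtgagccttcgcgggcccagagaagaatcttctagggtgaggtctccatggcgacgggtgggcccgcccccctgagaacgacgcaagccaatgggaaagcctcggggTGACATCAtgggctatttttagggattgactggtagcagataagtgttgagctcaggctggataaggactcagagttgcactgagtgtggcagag

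Of the 10 genes, 8 matched an entry with a promoter window, all but *Fosl1* and *Egr1*. Both strands were searched. The 6 letters TGACGT, the core of a CRE, began 66 bases before the start in *Fos* and began 8 bases before the start in *Atf3*, where they stand on the opposite strand and read ACGTCA. They were in 7.51% of the 32851 windows of this length. TGACATCA, a CRE-like site known from the *Jun* promoter, began 45 bases before the start in *Jun* and was in 3.62% of windows. The *Fosl2* window held no match to these letters. The AP-1 site TGACTCA (5.20% of windows), the full CRE TGACGTCA, which contains TGACGT (1.79%), and the CArG box bound by SRF (1.63%) had no match in any of the 8 windows. Nor had the EGR site GCGTGGGCG (0.612% of windows), while CCAAT was in 4 of the 8 (37.4% of windows) and TATAAA in 2 of the 8 (13.6%). These matches describe the letters in the windows only.

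*Fosl1* encodes FRA1, a Fos protein without the strong activation domain of FOS. Its log2 values were 6.66, 6.02 and 5.77 in M0505 replicates 1 to 3 and 10.17, 9.98 and 9.64 in STOSE replicates 1 to 3. The lowest STOSE array lay 2.99 log2 units above the highest M0505 array. The means were 6.15 ± 0.46 (SD, n = 3) and 9.93 ± 0.27 (SD, n = 3), 13.8-fold higher in STOSE cells (log2 difference 3.78, SE 0.22, limma adjusted p = 2.15e-06). By log2 fold change this was rank 41 among the rises of all genes. Leaving out 1 array at a time gave 12.1-fold to 16.4-fold.

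*Fos* encodes the founding member of the family, whose transcript is short-lived. It was at 7.88, 8.06 and 7.74 in the M0505 arrays and at 6.31, 7.00 and 6.92 in the STOSE arrays. All STOSE arrays lay below all M0505 arrays, and STOSE replicate 1 was the lowest. The mean fell from 7.89 ± 0.16 (SD, n = 3) to 6.74 ± 0.38 (SD, n = 3), which is 2.22-fold lower (log2 difference −1.15, SE 0.18, limma adjusted p = 0.000590). Without STOSE replicate 1 the log2 fold change was −0.93, which is under 2-fold.

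*Fosl2*, which encodes FRA2, had values of 10.42, 10.54 and 10.48 in M0505 cells and of 9.18, 9.37 and 9.33 in STOSE cells. Both sets were tight, with a standard deviation of 0.062 and 0.099, and did not overlap. STOSE cells were 2.27-fold lower (log2 difference −1.18, SE 0.070, limma adjusted p = 2.34e-06). Leaving out 1 array at a time gave 2.18-fold to 2.33-fold. When each array was centred on the median of its genes with a symbol, which raised the median log2 fold change of all genes by 0.20, the log2 fold changes of *Fosl2* (−0.98) and *Fos* (−0.95) were under 2-fold, while the direction held. Under that centring 55.5% of the genes called over the whole array were higher in STOSE cells, against 39.2% without it.

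*Fosb* was at 7.26, 7.13 and 6.63 in M0505 cells and at 6.78, 7.28 and 7.33 in STOSE cells. The arrays of the lines overlapped, with M0505 replicate 3 and STOSE replicate 1 apart from the other two of their line. The log2 fold change was 0.12 with a 95% interval of −0.32 to 0.56 (limma adjusted p = 0.615). This interval leaves room for a rise of 1.48-fold and for a fall of 1.25-fold, and the sign turned without M0505 replicate 3 (−0.069). Of the 4 Fos family genes, 1 was thus called higher, 2 were called lower and 1 was not called.

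**Figure D1:**
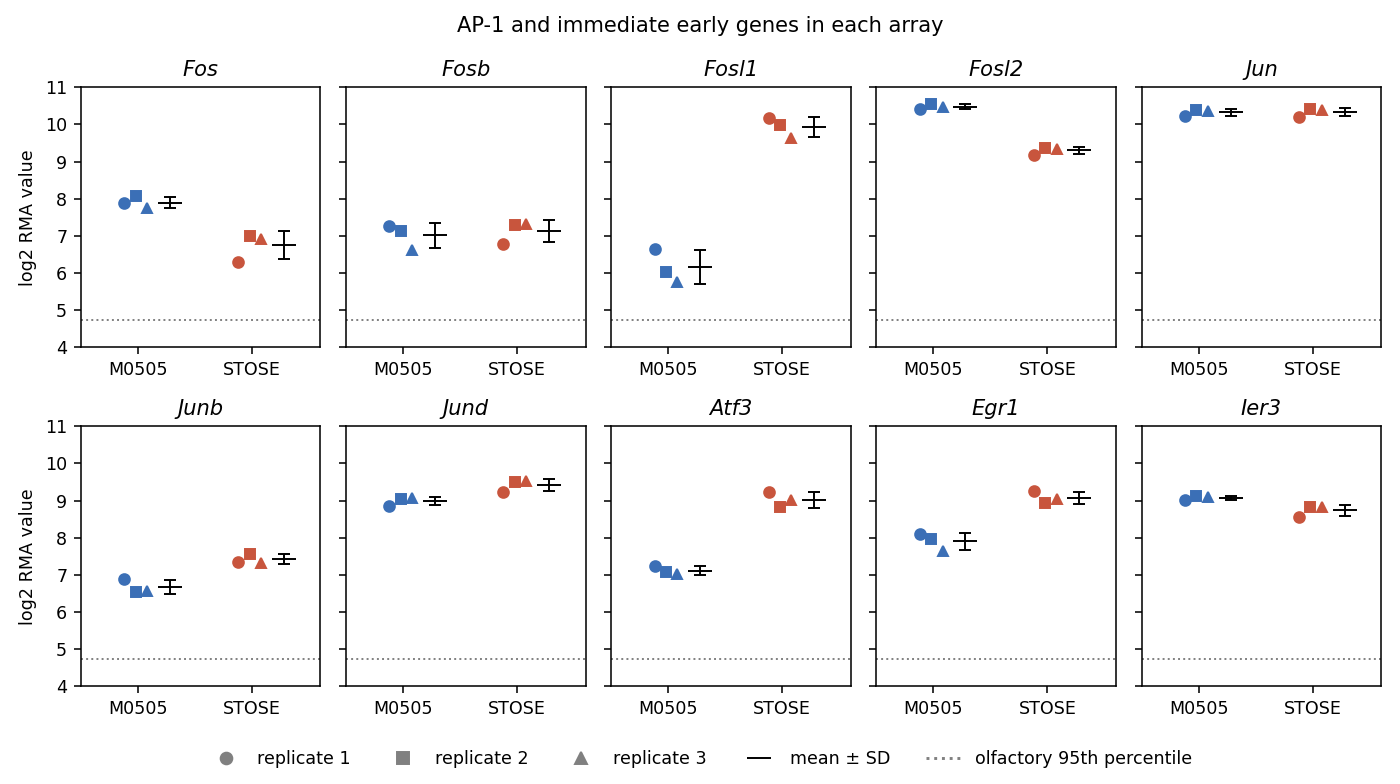
Log2 RMA value (vertical axis) of each of the 10 genes in the 3 M0505 arrays (blue) and the 3 STOSE arrays (red), with the replicate shown by symbol, the mean and SD of each line beside the points, and a dotted line at 4.74, the 95th percentile of olfactory receptor probe sets. The lines are far apart for *Fosl1* and *Atf3*, cross for *Jun* and *Fosb*, and every point lies above the dotted line; heights are not comparable between genes.

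None of the 3 Jun family genes was called. *Jun*, which encodes the AP-1 subunit that can act as a homodimer or with a Fos partner, was at 10.22, 10.40 and 10.35 in M0505 cells and at 10.21, 10.42 and 10.38 in STOSE cells. The values of the lines were interleaved. The log2 difference was 0.016 with a 95% interval of −0.17 to 0.20 (limma adjusted p = 0.880). Its sign turned under a further quantile normalization (−0.031) and in 3 of the 6 fits with an array left out, and it was 0.22 (limma adjusted p = 0.0418) with each array centred on the median of its genes with a symbol.

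*Junb*, which encodes a Jun protein often described as a weaker activator than JUN, was at 6.88, 6.54 and 6.57 in M0505 cells and at 7.35, 7.57 and 7.33 in STOSE cells. The lines did not overlap. STOSE cells were 1.69-fold higher (log2 difference 0.76, SE 0.11, 95% interval 0.51 to 1.01, limma adjusted p = 0.000395), so the adjusted p passed and the fold threshold was not reached. *Jund*, the Jun gene with the most constant transcription in many cell types, was at 8.85, 9.03 and 9.08 in M0505 cells and at 9.23, 9.50 and 9.51 in STOSE cells. Again no array overlapped, and the change was smaller, at 1.34-fold (log2 difference 0.42, SE 0.097, limma adjusted p = 0.00585).

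*Atf3* encodes a stress-induced basic leucine zipper protein that can pair with Jun proteins. It was at 7.24, 7.08 and 7.03 in the M0505 arrays and at 9.23, 8.81 and 9.01 in the STOSE arrays. Every STOSE array was above every M0505 array. The mean rose from 7.12 ± 0.11 (SD, n = 3) to 9.02 ± 0.21 (SD, n = 3), or 3.74-fold (log2 difference 1.90, SE 0.11, limma adjusted p = 1.88e-06). It was rank 220 among the rises, and the 6 fits without 1 array gave 3.47-fold to 4.01-fold.

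*Egr1* encodes a zinc finger factor outside the AP-1 family that is induced by the same signals. Its log2 values were 8.10, 7.97 and 7.65 in M0505 cells and 9.25, 8.93 and 9.05 in STOSE cells, with no overlap. STOSE cells were 2.25-fold higher (log2 difference 1.17, SE 0.13, limma adjusted p = 7.29e-05), or 2.06-fold to 2.41-fold with 1 array omitted. The lower end of its 95% interval, 0.88, was under 2-fold. *Ier3*, which encodes a small immediate early protein linked to cell survival, was at 9.02, 9.12 and 9.09 in M0505 cells and at 8.55, 8.83 and 8.82 in STOSE cells. The lines did not overlap, and STOSE cells were 1.27-fold lower (log2 difference −0.35, SE 0.085, limma adjusted p = 0.00834), or lower by a log2 difference of −0.15 (limma adjusted p = 0.165) under the centring named for *Fosl2*.

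**Figure D2:**
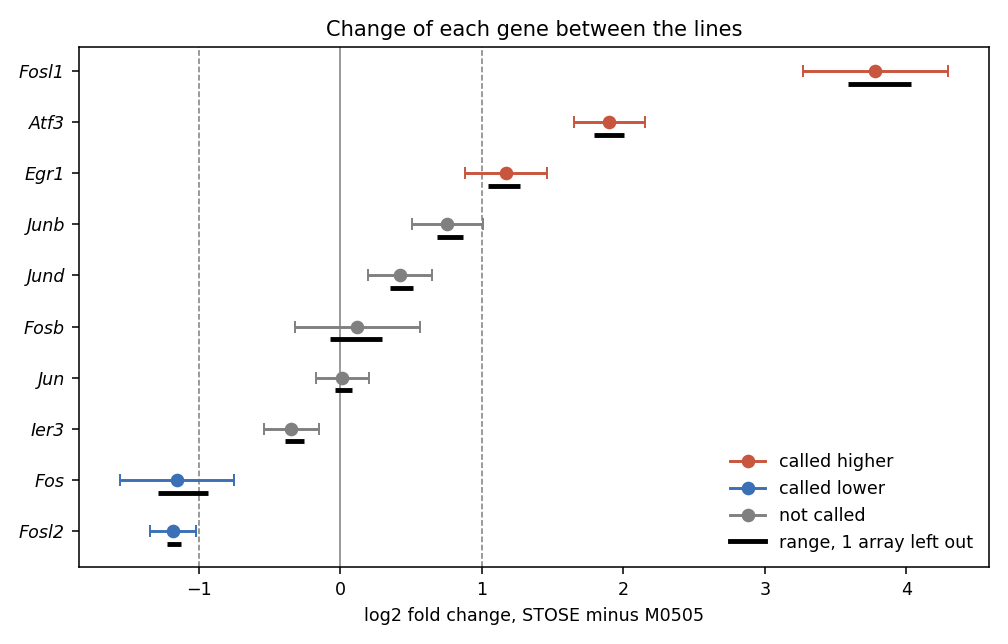
Log2 fold change of STOSE minus M0505 cells (horizontal axis) for the 10 genes, with the limma 95% interval as a thin bar and the range over the 6 fits with 1 array left out as a thick black bar, and dashed lines at 2-fold. *Fosl1* (3.78) and *Atf3* (1.90) lie beyond the upper line with their whole intervals and *Fosl2* (−1.18) beyond the lower one, while the intervals of *Egr1*, *Junb* and *Fos* cross a line.

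Ordered by log2 fold change, the genes ran from *Fosl1* (3.78) through *Atf3* (1.90), *Egr1* (1.17), *Junb* (0.76), *Jund* (0.42), *Fosb* (0.12), *Jun* (0.016) and *Ier3* (−0.35) to *Fos* (−1.15) and *Fosl2* (−1.18). The 95% intervals of *Fosl1* and *Atf3* did not overlap each other or that of any other member. *Egr1* and *Junb* overlapped, as did *Junb* and *Jund*, *Jund* and *Fosb*, *Fosb* and *Jun*, *Jun* and *Ier3*, and *Fos* and *Fosl2*. Among genes that were not neighbours in this order, *Junb* overlapped *Fosb*, *Jund* overlapped *Jun*, and *Fosb* overlapped *Ier3*. Overlap of separate intervals is not a test of the difference between genes, so the order within these pairs was not tested. *Ier3* and *Fos* did not overlap.

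The 10 genes did not share one order of replicates. In M0505 cells *Fosl1*, *Fosb*, *Junb*, *Atf3* and *Egr1* were highest in replicate 1, *Fos*, *Fosl2*, *Jun* and *Ier3* in replicate 2 and *Jund* in replicate 3. In STOSE cells replicate 1 was the lowest array for 6 genes, namely *Fos*, *Fosb*, *Fosl2*, *Jun*, *Jund* and *Ier3*, and the highest for *Fosl1*, *Atf3* and *Egr1*. So the 3 genes called higher peaked in the array in which both genes called lower were at their lowest. The spread also differed between genes. The pooled standard deviation of *Fosl1*, *Fosb* and *Fos* was larger than that of 99.4%, 98.9% and 98.4% of all genes, whereas that of *Fosl2* was larger than 41.9%.

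**Figure D3:**
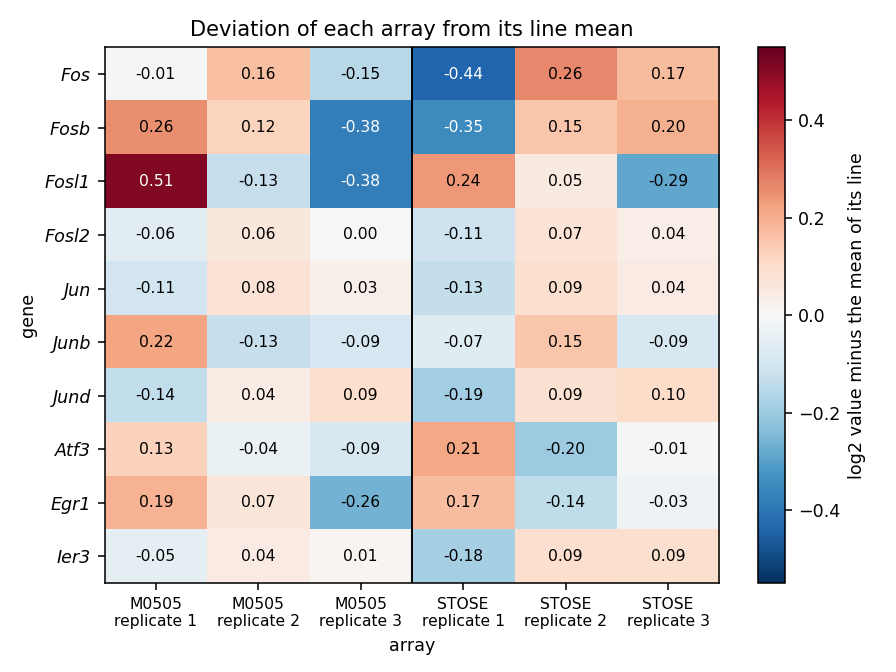
Log2 value of each array minus the mean of its line, for the 10 genes (rows) in the 6 arrays (columns), from blue (below the mean) to red (above it). *Fosl1* stands 0.51 above its line mean in M0505 replicate 1 and *Fos* 0.44 below it in STOSE replicate 1, where *Fosl1*, *Atf3* and *Egr1* are above theirs.

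Next, 4 lists of related genes were read beside these 10, with *Maff*, *Srf* and *Atf2* each in more than 1 list. The counts below use the same rule as above. Over all genes, dim ones included, 4.90% were called higher and 7.59% lower, and the median log2 fold change was 0.077. The lists were chosen with earlier results of these data known. The study had already reported *Ccnd1* and *Spp1*, both in the list of AP-1 targets, as changed. The shares are therefore given as description and do not test the lists. Of 13 other basic leucine zipper genes of the AP-1 superfamily (the BATF, MAF, JDP2, ATF2 and ATF7 genes with *Nrl*), 1 was called higher, 0 were called lower by limma and by the methods' t-test, and the median was 0.15. The limma adjusted p alone was under 0.05 for 6 higher and 1 lower, and the unadjusted p for 6 higher and 2 lower. The gene called was *Maff*, a small MAF protein gene that is itself induced early by serum, with means of 6.25 ± 0.073 (SD, n = 3) in M0505 and 7.62 ± 0.085 (SD, n = 3) in STOSE cells, or 2.57-fold (log2 difference 1.36, limma adjusted p = 9.71e-07).

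Of 36 other immediate early genes, 9 (25%) were called higher and 4 (11.1%) lower in STOSE cells, with a median log2 fold change of 0.37. *Plk2*, a polo-like kinase gene, rose from 8.08 ± 0.16 (SD, n = 3) to 10.20 ± 0.086, a log2 fold change of 2.12. *Cyr61*, which encodes a matricellular protein, rose by 1.97, and *Klf2* (1.40) and *Klf4* (1.15), which encode Krüppel-like factors, rose with them. *Srf*, the gene of the factor that acts on serum response elements, rose by 1.06, and the remaining rises were those of *Maff*, *Rhob*, *Ier2* and *Klf6*. The genes called lower were *Btg2* (−1.27), an antiproliferative gene, *Gem* (−1.19), which encodes a small GTPase and had a mean of 4.35 in STOSE cells, under the olfactory receptor percentile of 4.74, *Gadd45b* (−1.12), a stress response gene, and *Csrnp1* (−1.11), which encodes a nuclear protein. With each array centred on the median of its genes with a symbol, 1 gene of the list was called lower. The close relatives of *Egr1* changed less than 2-fold, at 0.46 for *Egr2* (limma adjusted p = 0.00415), 0.29 for *Egr3* (0.00907) and 0.23 for *Egr4* (0.0624).

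Of the 30 kinases and factors listed upstream of AP-1, 29 were on the array, 2 were called higher, 2 lower and the median was 0.0021. *Mapk11*, which encodes p38β, rose from 8.29 ± 0.17 (SD, n = 3) to 9.86 ± 0.083 (log2 fold change 1.57), and *Srf* was the other gene called higher. *Map3k1*, a kinase gene of the JNK branch, fell from 8.97 ± 0.12 to 6.95 ± 0.091 (log2 fold change −2.02), and *Map2k6*, which encodes a p38 activator, fell from 6.02 ± 0.020 to 4.16 ± 0.21 (−1.86), with the mean in STOSE cells below 4.74, the 95th percentile of probe sets for olfactory receptors. *Map2k1*, with a log2 fold change of −0.92, passed the adjusted p but not the fold threshold.

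Of 22 genes often described as AP-1 targets, 7 (31.8%) were called higher and 3 (13.6%) lower, with a median log2 fold change of 0.25. The collagenase gene *Mmp13* rose from 4.85 ± 0.10 (SD, n = 3) to 6.56 ± 0.21 (log2 fold change 1.71, limma adjusted p = 3.03e-06). *Tnc*, which encodes the matrix protein tenascin C, rose by 3.38, from 5.55 ± 0.20 to 8.93 ± 0.38. *Cd44*, the hyaluronan receptor gene, rose by 1.32. *Mmp3*, the stromelysin gene, was called higher too, but its means in both lines (3.60 and 4.71) were under 4.74. *Spp1*, *Ccnd1* and *Ptgs2* were the other genes called higher. Among the genes called lower, *Plau*, the urokinase gene, fell by 2.22, to a mean of 4.33 that was under 4.74, and *Hbegf*, an EGF receptor ligand gene, fell by 1.41. Genes of this list thus moved both ways, and the arrays did not measure AP-1 activity.

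**Figure D4:**
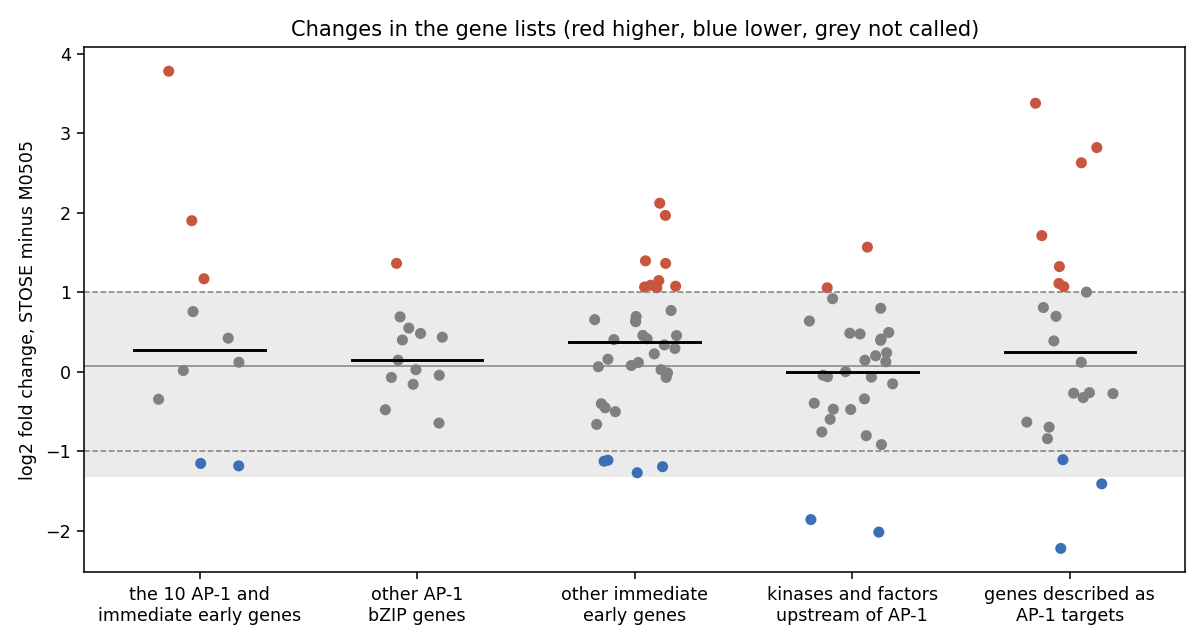
Log2 fold change of STOSE minus M0505 cells (vertical axis) of every gene in the group of 10 and in the 4 lists, red where called higher, blue where called lower and grey otherwise, with the median of each as a black bar; the grey band spans the 5th to the 95th percentile of all genes (−1.31 to 0.99) and the dashed lines mark 2-fold. The other immediate early genes have their median at 0.37 and the upstream kinases and factors theirs at 0.0021.

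All 10 genes were above the olfactory receptor percentile of 4.74 in all 6 arrays. The median log2 value of an array over all probe sets lay between 5.64 and 5.68. Over the genes with a symbol, the array medians were 6.46 to 6.49 in M0505 and lower, at 6.25 to 6.29, in STOSE cells. Of 12 markers of ovarian surface epithelium and mesothelium, 11 were on the array and all 11 were above that percentile in both lines. *Krt8*, *Krt19* and *Krt7* were called lower in STOSE cells, and *Cdh1* was close to the percentile in both lines (4.79 and 4.82). *Krt18* (log2 fold change −0.84), *Wt1* (−0.63), *Msln* (−0.61), *Upk3b* (−0.34) and *Gpm6a* (−0.29) passed the adjusted p with falls of less than 2-fold. No marker of this list passed it upward. The unlogged values of the 11 summed to 26547.7 to 27998.9 in M0505 arrays and 15884.6 to 17420.5 in STOSE arrays. No marker of another cell type was called higher in STOSE cells, although some passed the adjusted p with rises of less than 2-fold. The sum of the unlogged values of 5 endothelial markers was 857 to 941 in M0505 arrays and 144 to 149 in STOSE arrays, with *Kdr* the marker called lower. In M0505 arrays this sum was carried mostly by *Kdr* (log2 means 9.58 in M0505 and 4.41 in STOSE cells). *Pecam1* (log2 fold change −0.36), *Cdh5* (0.20), *Vwf* (0.17) and *Tek* (0.014) differed by less than 2-fold. The sum of 6 leukocyte markers was 807 to 1063 against 205 to 249, with *Cd68* called lower and *Ptprc* under the percentile in both lines. The sum of 5 granulosa cell markers was 886 to 1005 against 188 to 217, with *Inha* called lower and *Fshr* and *Cyp19a1* under the percentile. *Cd68* (9.78 in M0505 and 6.96 in STOSE cells) and *Inha* (9.61 and 5.68) carried most of the leukocyte and granulosa cell sums in M0505 arrays. No other marker of the endothelial, leukocyte and granulosa cell lists was called. The sum of 5 fibroblast markers was 4798 to 5133 against 4145 to 4429, and was carried mostly by *Dcn* (11.94 and 11.49). *Col1a2* was called lower, whereas *Col1a1* went from 9.24 to 10.20 (log2 fold change 0.95, limma adjusted p = 6.50e-06) and *Pdgfra* from 6.87 to 7.70 (0.84, limma adjusted p = 0.00331), both just under 2-fold and with no overlap between the lines. The other markers that passed the adjusted p upward were *Cd79a* (0.35), *Amh* (0.27), *Cd3e* (0.22) and *Cdh5* (0.20). Whether these levels bear on the AP-1 genes was not tested.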

How the data were processed

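The authors deposited log2 values for 28944 probe sets, 1 column per array, made by RMA (robust multi-array average, listed with Affymetrix Expression Console in the submitters' processing notes). RMA subtracts background, brings all arrays to the same distribution by quantiles and merges the probes of a set, so a shift of the whole array is not kept. Versions and genome build are not given in the sources used here. The table also holds the authors' mean of each line, their ratio and a linear fold change, which were not used. All 6 columns were matched to samples by name and 0 were left over. A symbol was given for 23530 probe sets, and the one with the highest mean over the 6 arrays stood for each of 20405 genes. The comparison of STOSE with M0505 arrays used limma 3.58.1 (lmFit, eBayes) under R 4.3.3 without covariates. An exact permutation test of 3 against 3, two-sided, has 0.1 as its smallest p. The number of arrays limits the precision. In data simulated for this comparison over 20405 genes, changes of −2, 1.5, 2 and 3 on the log2 scale were planted. Of genes changed by 1.5, 98% were called, and of those changed by 2, 100%, with 1 false call. Noise was drawn independently for each gene. Changes as small as those of *Egr1*, *Fos* and *Fosl2* were not simulated, so these figures do not cover their calls. The 95th percentile of 1134 olfactory receptor probe sets (4.74) served as a background level. The members, the 4 gene lists and the markers were chosen with earlier results of these data known. From each list the genes named were the called ones, at most 8 by size of change, with the others added where a count was spelled out and *Egr2*, *Egr3*, *Egr4* and *Map2k1* added after their values were seen. Values of some listed genes are not reported here. Chromosome positions are those of the RefSeq promoter table. Alternatives were the filter on dim genes, centring, quantile normalization, the treatment of probe sets, the methods' t-test, limma with trend and robust estimation, no fold threshold, a replicate block and each array left out.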

Additional observations from a re-analysis of the deposited data

How the results depend on the processing

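The 17 alternatives left the direction and the call of *Fosl1*, *Atf3* and *Egr1* as they were, over log2 fold changes of 3.59 to 4.04, 1.80 to 2.10 and 1.04 to 1.37. With no fold threshold, 5 of the 10 genes were higher, *Junb* and *Jund* being added, and *Ier3* joined the lower genes. Then 6454 of all genes were higher and 5066 lower, and the lists held 6 higher and 1 lower (other basic leucine zipper genes), 20 and 7 (other immediate early genes), 13 and 11 (upstream kinases and factors) and 10 and 9 (AP-1 targets). Centring on the median of the genes with a symbol, an alternative chosen after seeing the data, left 0 of the 10 genes and 1 other immediate early gene called lower. Without the dimmer 50% of genes, 1 upstream gene was called lower, since *Map2k6* was no longer tested. With an array left out, 1 to 2 of the 10 genes were called lower, 1 being the count without STOSE replicate 1. *Jun* was −0.031 after a further quantile normalization and ranged from −0.037 to 0.082 with an array left out, being below 0 without M0505 replicate 1 and without STOSE replicates 2 or 3. *Fosb* ranged from −0.069 (without M0505 replicate 3) to 0.30 with an array left out. Where no construction of the alternative shows it, the cause was not tested. Whether the replicate numbers pair the arrays is not said in the titles, and the main fit did not pair them. Same-numbered arrays correlated in their deviations from the line means at 0.26, 0.04 and 0.25 for replicates 1, 2 and 3. The values of replicates 1 and 3 were the highest among all pairs of an M0505 and a STOSE array. STOSE replicate 2 correlated better with M0505 replicate 3 (0.12) than with M0505 replicate 2. A shared replicate effect was thus not excluded. With the number as a replicate block 3 of the 10 genes were still called higher and 2 lower, and over all genes 1001 and 1548. The methods' t-test, with the 2-fold rule kept, also called 3 of the 10 genes higher and 2 lower, with 996 and 1546 of all genes at its unadjusted threshold and 988 and 1543 after Benjamini-Hochberg adjustment. Groups of 3 arrays and the 2-fold line limit what can be said of *Fos*, *Fosl2* and *Junb*.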
